A study of Coturnix japonica and Phalacrocorax auritus with 29 samples.

Results

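Liver RNA was read for 3 protein names that rose steeply in chlorpyrifos-exposed Japanese quail embryos and are not cytochrome P450 enzymes. They are gastrin/cholecystokinin_like_peptide (here the gastrin/CCK-like peptide), transmembrane_protein_139 (TMEM139) and tubulin_polymerization_promoting_protein (TPPP). All 3 were chosen by their rise at the high dose against control in quail, on the log2 scale, so that rise and the rise over the medium dose are given as descriptions without a test. They were 3 of 22845 protein names in the table of the Japanese quail (JQ) and 3 of 21547 in that of the double-crested cormorant (DCCO). Matching was by the exact protein name in each table.

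Chlorpyrifos is an organophosphate insecticide whose bioactivated form inhibits acetylcholinesterase. In both species DMSO (the solvent control), a medium dose or a high dose was put into the air cell of fertilised eggs before incubation, and livers were taken from the embryos. Nominal doses were 0.4, 4 and 40 µg per g of egg, and the labels do not tie these numbers to the names medium and high. JQ had 5 control, 5 medium and 5 high dose libraries, labelled embryo day 9 except control replicate 5, which is labelled day 16. DCCO had 4 control, 5 medium and 5 high dose libraries, labelled day 16, and the number in 1 DCCO control column matches no control label, so that library is called unnumbered. Each library is labelled as an individual liver, and what a p-value weighs here is the variation from liver to liver.

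Gastrin and cholecystokinin are related peptide hormones, made mainly by endocrine cells of the gut and by neurons. They are cut from longer precursors, sulfated on tyrosine and amidated at the carboxyl end before they act on the receptors CCKAR and CCKBR. TMEM139 is a small membrane protein that in humans was described as a partner of the anion exchanger SLC4A1 (band 3). TPPP binds and stabilises microtubules and is best known from mammalian oligodendrocytes. None of the 3 belongs to the classical set of drug-metabolising enzymes.

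The JQ libraries held 11548222 to 27778954 counts each. Those of DCCO held 9890108 to 21976904. The summed level of 11 hepatocyte markers lay between 111687 and 285173 CPM (counts scaled to a common library size, with TMM factors for library composition) in JQ, with no marker at 0 in any library. JQ high dose replicate 1 stood apart. Its summed level of 10 kidney markers was 2081 CPM against 30.6 to 101 CPM in the other 14 libraries. SLC34A1, the phosphate carrier of the proximal tubule, was at 1204 CPM. JQ control replicate 2 held the islet hormone glucagon (GCG) at 44.0 CPM, and medium dose replicate 5 had the highest endocrine marker sum of its group, 17.8 CPM. In DCCO, control replicate 2 had a kidney marker sum of 287 CPM, and medium dose replicate 5 had an endocrine marker sum of 705 CPM. Results that rest on these libraries are given with and without them.

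The gastrin/CCK-like peptide was nearly silent in JQ control liver, with 8, 1, 2, 0 and 15 reads in control replicates 1 to 5. At the medium dose the libraries held 176, 33, 11, 9 and 3 reads. At the high dose they held 263, 97, 3076, 686 and 6252 reads. Every high dose library lay above every control, and high dose replicates 3 and 5 stood far above the other 3. High dose replicate 2, the lowest of its group, lay below medium dose replicate 1, so the high and medium groups overlapped.

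Scaled to depth, the peptide went from 0.278 ± 0.334 CPM in controls to 2.36 ± 3.84 CPM at the medium dose and 85.6 ± 102 CPM at the high dose (mean ± SD, n = 5 each). The SD was larger than the mean in all 3 groups. High dose replicate 5, at 235 CPM, held 55.0% of the summed high dose level, and high dose replicate 2 was at 5.46 CPM. The lowest high dose library was still 6.63 times the highest control. The control replicate with 0 reads could have held up to 0.185 CPM, the level that 3 reads give at its depth. Such limits, here and below, are per library total without TMM factors and cover counting error only.

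**Figure D1:**
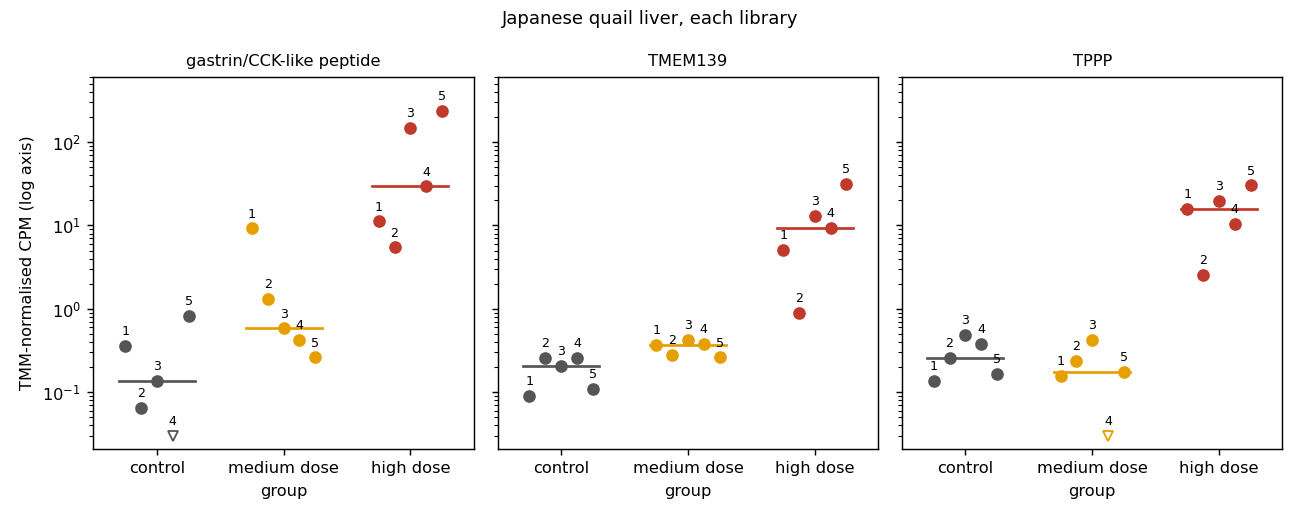
TMM-normalised CPM (log axis) of the 3 genes in each JQ library by group, with replicate numbers beside the points, group medians as lines and libraries with 0 reads as open triangles at the floor. All high dose points of TMEM139 and TPPP lie above all other points, while for the gastrin/CCK-like peptide medium dose replicate 1, at 9.19 CPM, lies above high dose replicate 2.

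TMEM139 was also close to the detection limit in unexposed JQ liver. Control replicates 1 to 5 held 2, 4, 3, 4 and 2 reads, and medium dose replicates 7, 7, 8, 8 and 3 reads. High dose replicates held 119, 16, 270, 217 and 828 reads. The mean was 0.184 ± 0.0794 CPM in controls, 0.342 ± 0.0687 CPM at the medium dose and 11.9 ± 11.7 CPM at the high dose (SD, n = 5 each). High dose replicate 5 was again highest, at 31.2 CPM, and replicate 2 again lowest, at 0.901 CPM. That lowest high dose library was 3.50 times the highest control and lay above every medium dose library.

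TPPP showed no step at the medium dose. Control replicates 1 to 5 held 3, 4, 7, 6 and 3 reads, medium dose replicates 3, 6, 8, 0 and 2 reads, and high dose replicates 375, 45, 411, 242 and 800 reads. The means were 0.285 ± 0.146 CPM, 0.199 ± 0.153 CPM and 15.7 ± 10.3 CPM (SD, n = 5 each). The medium and control libraries overlapped, and each high dose library lay above all 10 of them. High dose replicate 2, at 2.53 CPM, was 5.26 times the highest control, and replicate 5 was at 30.1 CPM. The medium dose library with 0 reads could have held up to 0.144 CPM at its depth.

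In the fit of edgeR's quasi-likelihood model over all 15 JQ libraries, the log2 fold change at the high dose against control was 8.14 (standard error, SE, 1.43) for the gastrin/CCK-like peptide. It was 6.02 (SE 0.79) for TMEM139 and 5.82 (SE 0.65) for TPPP. By size these were ranks 5, 17 and 19 among 14927 tested names, of which 3.56% changed at an adjusted p under 0.05 and 2.69% had every high dose library above every control. Against the medium dose the log2 fold changes were 5.15 (SE 1.14), 5.08 (SE 0.72) and 6.26 (SE 0.67), where 1.89% of names changed and 1.77% had every high dose library above every medium one. These values describe how the genes were chosen, and nothing is read from their share. In controls all 3 were below 16 reads in every library, so they entered the fit through the high dose libraries.

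High dose replicate 5 carried part of the size of these values. Without it the log2 fold change against control fell to 7.31 for the gastrin/CCK-like peptide, 5.26 for TMEM139 and 5.44 for TPPP. Without control replicate 5, the library labelled day 16 and the control with most reads of the peptide, the peptide's value was 9.01. The kidney-marked high dose replicate 1 was not among the highest libraries of the peptide or of TMEM139. Without it the high dose means were 104 ± 107 CPM for the peptide, 13.6 ± 12.8 CPM for TMEM139 and 15.7 ± 11.9 CPM for TPPP (SD, n = 4). With control 2, medium dose 5 and high dose 1, the JQ libraries that carry other tissues' markers, all left out, the log2 fold changes were 8.19, 6.38 and 5.80.

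**Figure D2:**
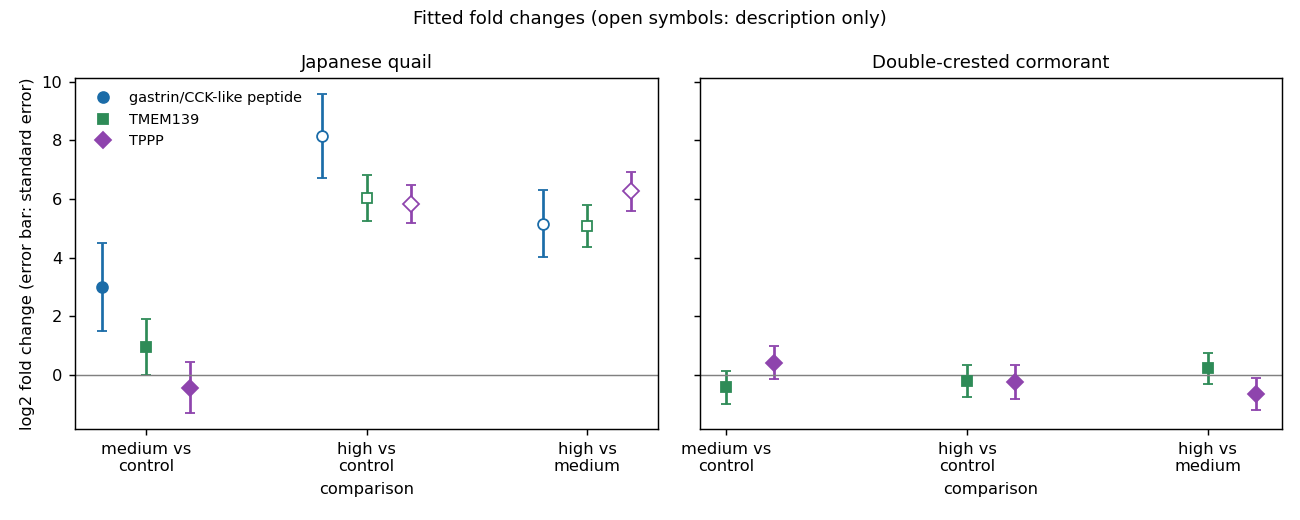
Fitted log2 fold changes with standard errors for the 3 genes in each comparison within JQ (left) and DCCO (right). Open symbols mark JQ high dose comparisons, which are description only, and the gastrin/CCK-like peptide has no DCCO point because its reads were too few to be tested there. The JQ high dose values lie between 5.08 and 8.14, and the DCCO values between -0.66 and 0.41.

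The medium dose libraries in JQ did not choose the genes, but the controls did, and the genes passed the low-count filter only through the high dose libraries. The medium dose values are given with that reserve, and nothing is read from the p-values of the 3 genes. None of the 3 passed the edgeR test after Benjamini-Hochberg adjustment over all names, and neither did any other of the 14927 names (0% called, 646 at an unadjusted p under 0.05, 6 called by DESeq2 and 0 by limma voom). The gastrin/CCK-like peptide had a log2 fold change of 2.99 (SE 1.51, edgeR adjusted p = 0.999), higher than all controls in 2 of 5 libraries. Its size rested on medium dose replicate 1, without which it was 1.22. TMEM139 had a value of 0.94 (SE 0.95, edgeR adjusted p = 0.999). TPPP had a value of -0.44 (SE 0.88, edgeR adjusted p = 0.999).

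For TMEM139 each of the 5 medium dose libraries lay above each control, a pattern shown by 0.489% of tested names. The gap was less than 1 read wide. The lowest medium dose library had 3 reads and the highest control had 4, at 0.261 and 0.257 CPM. When CPM was taken per library total, without the TMM factors, medium dose replicates 2 and 5 fell to 0.252 and 0.260 CPM, below the 0.263 CPM of control replicate 2, and the groups overlapped.

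In cormorant liver TMEM139 and TPPP did not pass the test in any comparison, and the gastrin/CCK-like peptide had too few reads to be tested. The gastrin/CCK-like peptide held 0, 12, 3 and 0 reads in DCCO controls (replicates 1 to 3 and the unnumbered one), 2, 5, 10, 3 and 2 reads at the medium dose and 2, 5, 7, 1 and 1 reads at the high dose. These were 0.258 ± 0.399 CPM (SD, n = 4), 0.267 ± 0.117 CPM and 0.224 ± 0.203 CPM (SD, n = 5), and the 3 groups overlapped. In a fit without the filter on low counts the log2 fold change at the high dose was -0.28 (SE 0.84, edgeR adjusted p = 1). The control libraries with 0 reads could have held up to 0.200 and 0.269 CPM.

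TMEM139 held 2, 27, 13 and 9 reads in DCCO controls, 10, 16, 16, 8 and 2 at the medium dose and 7, 13, 12, 26 and 4 at the high dose. The means were 0.917 ± 0.716 CPM (SD, n = 4), 0.684 ± 0.366 CPM and 0.785 ± 0.414 CPM (SD, n = 5), and the groups overlapped. The log2 fold change was -0.21 (SE 0.55, edgeR adjusted p = 0.9996) at the high dose and -0.43 (SE 0.56, edgeR adjusted p = 0.924) at the medium dose. The highest control was the kidney-marked control replicate 2, at 1.89 CPM. Without it the high dose value turned to 0.41 and the medium dose value to 0.18, and the control mean was 0.592 ± 0.371 CPM (SD, n = 3).

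TPPP held 5, 18, 30 and 14 reads in DCCO controls, 19, 25, 38, 34 and 8 at the medium dose and 0, 24, 14, 23 and 14 at the high dose. The means were 1.20 ± 0.612 CPM (SD, n = 4), 1.60 ± 0.532 CPM and 1.03 ± 0.594 CPM (SD, n = 5). The log2 fold change was -0.26 (SE 0.59, edgeR adjusted p = 0.9996) at the high dose and 0.41 (SE 0.57, edgeR adjusted p = 0.929) at the medium dose. The library with 0 reads could have held up to 0.159 CPM, well below the 4 other high dose libraries at 1.09 to 1.45 CPM. It and control replicate 1, the lowest control at 0.410 CPM, are the DCCO libraries with 6 in the column name. Without both, the means were 1.46 ± 0.383 CPM in controls (SD, n = 3) and 1.29 ± 0.161 CPM at the high dose (SD, n = 4).

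Across all DCCO names edgeR called 0.0343% at the high dose and 0.048% at the medium dose against control. High against medium dose it called 0% (475 at an unadjusted p under 0.05, 4 called by DESeq2 and 0 by limma voom). In that last comparison TMEM139 had a log2 fold change of 0.22 (SE 0.53) and TPPP of -0.66 (SE 0.54), both at an edgeR adjusted p of 0.9996. With limma voom TPPP had -1.46 there and -0.96 at the high dose against control. These genes rest on 0 to 38 reads per DCCO library. The difference between the species was not tested for these genes, because the JQ rise chose them.

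**Figure D3:**
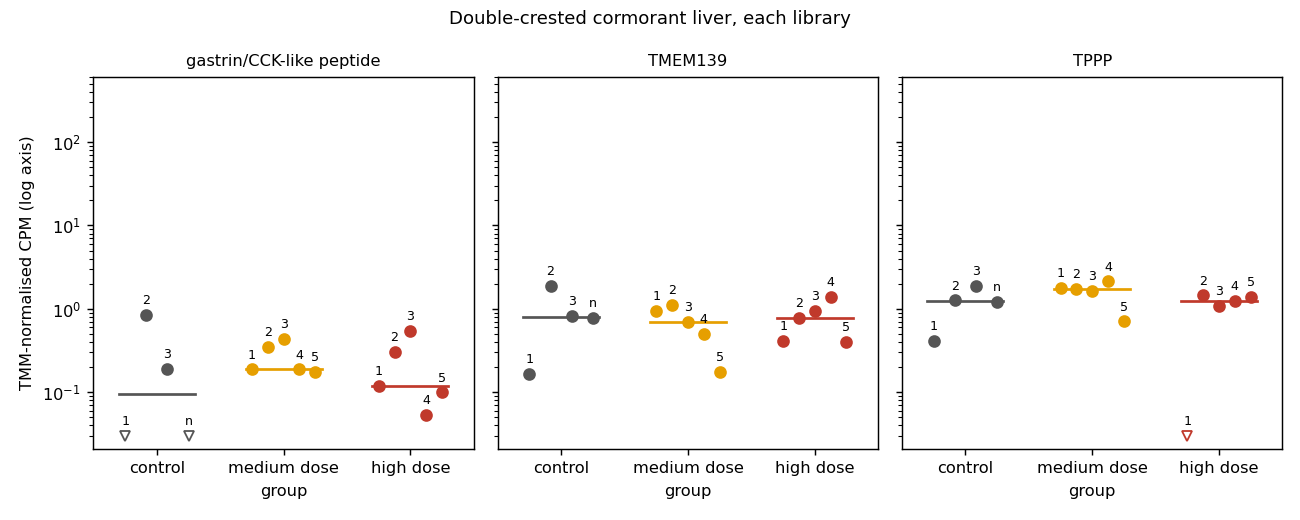
TMM-normalised CPM (log axis, same range as for JQ) of the 3 genes in each DCCO library by group, with replicate numbers (n is the unnumbered control), group medians as lines and libraries with 0 reads as open triangles at the floor. No group stands above the others, and all points lie at or below 2.13 CPM.

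The 5 high dose JQ livers spread more widely in these 3 genes than in CYP2H1, CYP2H2 and ALAS1, given as a description with no test. The highest high dose library exceeded the lowest 43.1 times for the gastrin/CCK-like peptide, 34.6 times for TMEM139 and 11.9 times for TPPP. For CYP2H1, the main phenobarbital-inducible cytochrome P450 of chicken liver, the range was 4350.2 to 9110.5 CPM, a ratio of 2.09. For ALAS1, the first enzyme of haem synthesis, it was 1726 to 3449 CPM, a ratio of 1.998. The SD of log2 CPM over the 5 high dose libraries was 2.32, 1.85 and 1.35 for the 3 genes, against a median of 0.403 over the 316 names called higher at the high dose. By that SD they ranked 3, 7 and 19 of the 316, CYP2H1 ranked 131 and ALAS1 169. The test that called the 316 names weighs the spread between livers, so names with a modest rise are called mainly where that spread is small. The 3 genes were chosen by a large rise, so their ranks partly follow from the selection.

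**Figure D4:**
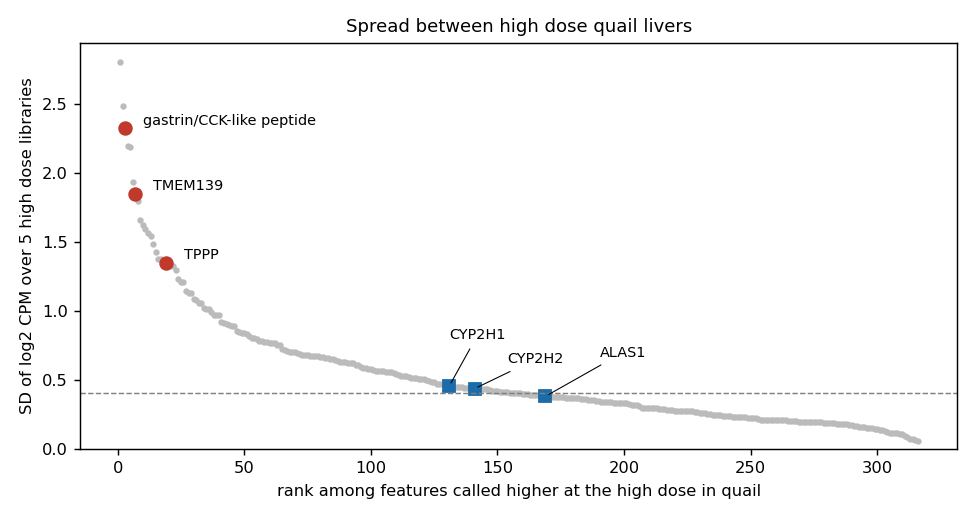
SD of log2 CPM over the 5 high dose JQ libraries for the 316 names called higher at the high dose, ranked from the most to the least variable, with the median of 0.403 as a dashed line. The 3 genes (red circles) lie at ranks 3, 7 and 19, and CYP2H1, CYP2H2 and ALAS1 (blue squares) near the median.

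The 3 genes put the high dose livers in almost the same order. For the gastrin/CCK-like peptide and TMEM139 it was replicate 5, 3, 4, 1, 2 from high to low, and for TPPP it was 5, 3, 1, 4, 2. CYP2H1 and ALAS1 gave 4, 3, 5, 1, 2, with replicate 2 lowest there too. Over all 15 JQ libraries, log2 CPM of TMEM139 and TPPP correlated with a Pearson r of 0.945 (Spearman rho 0.700). The r was 0.900 (rho 0.811) between the gastrin/CCK-like peptide and TMEM139 and 0.838 (rho 0.546) between the peptide and TPPP. These values take in the step between the high dose and the other groups. Over the 10 control and medium dose libraries the same pairs gave -0.01, 0.22 and -0.30, at read numbers where most genes are near the floor. They also take in the order of the livers within the high dose. Over the high dose libraries alone r was 0.939 between TMEM139 and TPPP and 0.920 between the peptide and TMEM139, given with no test. For the peptide with TPPP, the pair with the lowest r over all 15 libraries, no such value is given here.

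**Figure D5:**
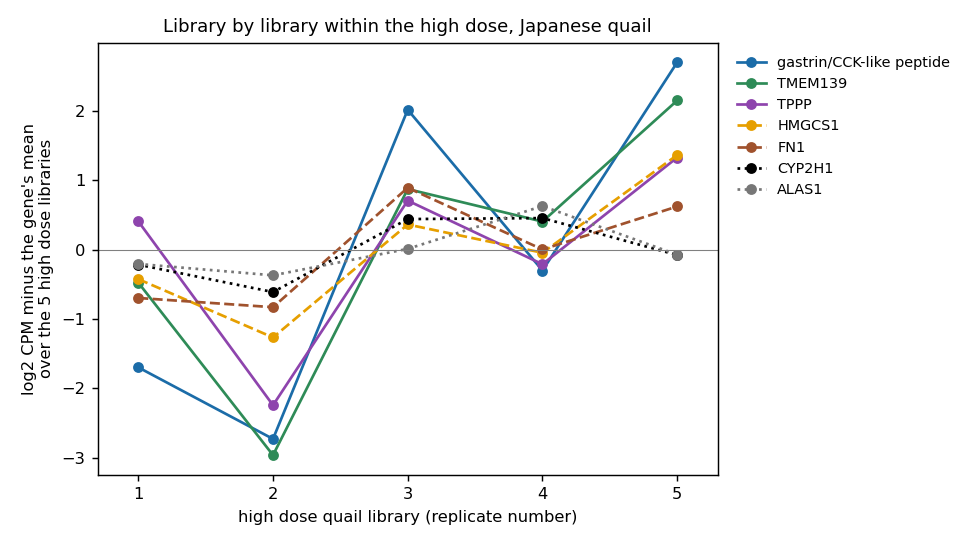
Log2 CPM of 7 genes in each high dose JQ library, each minus its own mean over the 5 libraries, with lines only joining the points of 1 gene. The gastrin/CCK-like peptide, TMEM139 and TPPP, with HMGCS1 and FN1, are lowest in replicate 2 and higher in replicates 3 and 5 than in replicate 4, while CYP2H1 and ALAS1 vary less and peak in replicate 4.

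By Pearson correlation over the 15 JQ libraries, the names most like the gastrin/CCK-like peptide were HMGCS1, 2 fibronectin names, a glucuronosyltransferase and a folate enzyme. HMGCS1, the cytosolic synthase at the start of cholesterol synthesis, had an r of 0.955 (rho 0.871), with 66.5 ± 17.6 CPM in controls and 302 ± 209.5 CPM at the high dose (SD, n = 5). Its order over the high dose livers was that of the peptide, 5, 3, 4, 1, 2. Fibronectin, an abundant secreted matrix protein, came as fibronectin_like (r = 0.948) and fibronectin_1 (FN1, r = 0.944), the latter with 1409.6 ± 135 CPM in controls and 5218 ± 2663 CPM at the high dose (SD, n = 5). UDP-glucuronosyltransferase 1-6-like, an enzyme of drug conjugation, had an r of 0.939, and cytosolic C-1-tetrahydrofolate synthase, a folate enzyme, an r of 0.931.

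Medium dose replicate 1, the medium library with most reads of the peptide, was also the highest of its group for these 5 names. HMGCS1 was at 153 CPM there against 65.6 to 82.5 CPM in the other medium dose libraries. FN1 was at 3794 CPM against 1389.6 to 2370.3 CPM. The UDP-glucuronosyltransferase 1-6-like name was at 5.38 CPM against 0.523 to 1.22 CPM. CYP2H1, at 12.6 CPM, was likewise highest in that library among the medium dose. Its hepatocyte marker sum, 177463 CPM, was the lowest of the medium dose. Its gut and stomach marker sum was the highest of the group, 44.1 CPM. So was its skeletal muscle marker sum (10 markers), 98.9 CPM against 51.7 to 68.3 CPM. The muscle protein TTN was at 28.7 CPM there, against 0.959 to 4.41 CPM in the other medium dose libraries. The other muscle markers did not rise together. ACTA1 was highest of the group in that library, but MYLPF (2.04 CPM) and TNNT3 (0.313 CPM) were lowest. DES, at 47.2 CPM, lay within the range of the others. The part of gut, stomach or muscle cells in the levels was not tested.

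The names most like TMEM139 were an acyl-CoA dehydrogenase 11-like protein of fatty acid oxidation (r = 0.952, rho 0.761), TPPP, a creatine transporter 1-like protein (r = 0.942), the transcription factor ATOH8 (r = 0.939) and the ubiquitin-conjugating enzyme UBE2G1 (r = 0.934). ATOH8 had 0.906 ± 0.116 CPM in controls and 5.40 ± 4.01 CPM at the high dose, with the same order of livers as TMEM139 (SD, n = 5). UBE2G1 had 23.9 ± 1.74 CPM and 38.4 ± 5.99 CPM (SD, n = 5).

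Among the names most like TPPP were the actin regulator CARMIL1 (r = 0.946, rho 0.807), a UDP-glucuronosyltransferase 1-9-like name (r = 0.946), TMEM139 and CYP2C23B (r = 0.940). CARMIL1 had 47.6 ± 5.80 CPM in controls and 86.1 ± 19.0 CPM at the high dose (SD, n = 5), with the same order of livers as TPPP. CYP2C23B had 0.0347 ± 0.0326 CPM and 47.1 ± 14.5 CPM (SD, n = 5). The libraries behind all these correlations are the same 15, and the step up to the high dose group enters each r. Within the high dose libraries the names differed, given with no test. There r was 0.948 for HMGCS1 with the peptide and 0.980 for CARMIL1 with TPPP. With TPPP it was 0.518 for the UDP-glucuronosyltransferase 1-9-like name and 0.460 for CYP2C23B. By Spearman correlation 1 of the 5 names stayed among the 5 most alike for the peptide and 0 for TMEM139 and for TPPP.

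The rest of the gastrin and cholecystokinin pathway was barely read in JQ liver. The table holds separate names for cholecystokinin (CCK, at most 3 reads in any library), preprogastrin (at most 3 reads) and the receptor CCKAR (at most 3 reads). The receptor CCKBR held 1 to 20 reads, with the most in high dose replicate 5. All 4 were too low to be tested. Reads of related precursors can be assigned to similar protein names, so the split between these names is uncertain. In DCCO liver CCKBR held 50 to 195 reads and did not pass the test at the high dose (log2 fold change 0.37, SE 0.23, edgeR adjusted p = 0.9996).

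Among 13 tested genes of peptide hormone processing, 1 fell and 0 rose in JQ at the high dose against control, where 3.56% of all names were called. TPST1, an enzyme that sulfates tyrosines, went from 45.5 ± 7.43 to 32.9 ± 2.59 CPM (SD, n = 5, log2 fold change -0.47, SE 0.12, edgeR adjusted p = 0.0375). Without the 3 libraries carrying other tissues' markers its log2 fold change was -0.47 with an adjusted p of 0.121. The list's median log2 fold change was 0.01, and that of all tested names was 0.01. Of 15 gut and pancreas hormones in the JQ table only somatostatin (SST) had enough reads to be tested, and it had 2.504 ± 2.67 CPM in controls and 1.99 ± 1.52 CPM at the high dose (SD, n = 5, log2 fold change -0.35, edgeR adjusted p = 0.842).

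Markers of the cell types that normally make these proteins were read beside them. The gut and stomach list (11 markers in the JQ table) summed to 6.37 to 24.7 CPM in controls, 15.6 to 44.1 CPM at the medium dose and 15.2 to 96.4 CPM at the high dose. FABP2, an intestinal fatty acid binding protein, made up most of the highest sum of each group. It was at 92.2 CPM in high dose replicate 5, 50.3 CPM in replicate 2 and 9.05 CPM in replicate 3. At the medium dose FABP2 was highest in replicate 1, the library with most of the peptide, at 38.0 CPM against 9.85 to 12.1 CPM. Among the other gut markers, CDX1 and MUC2 were at 0.784 CPM or less in all JQ libraries. CDX2 ran from 0.165 to 1.16 CPM in controls and 0.238 to 2.25 CPM at the high dose. VIL1 ran from 0.363 to 0.958 CPM and 0.619 to 1.46 CPM. At the medium dose replicate 5 was highest in CDX1 (0.784 CPM), CDX2 (2.96 CPM), VIL1 (6.36 CPM) and CDH17 (7.76 CPM). VIL1 was at 0.560 to 1.51 CPM in the other medium dose libraries. In high dose replicate 1, the library with the kidney markers, the sum was led by the sugar carrier SLC5A1, at 42.4 CPM. SLC5A1 was at 1.27 CPM or less in the other JQ libraries. CDH17 was highest in that library too, at 20.7 CPM. Which cells these reads came from was not tested. The stomach markers GKN1, GKN2, CLDN18 and SOX2 were at 0.523 CPM or less in all libraries. The endocrine list (11 markers) summed to 4.196 to 68.4 CPM in controls, 4.92 to 17.8 CPM at the medium dose and 2.48 to 13.6 CPM at the high dose. INS was at 0 in 13 of 15 libraries. The neuron list (9 markers) summed to 44.2 to 54.7 CPM in controls and 46.0 to 89.3 CPM at the high dose, highest in replicate 2. The part of these cells in the rise was not tested.

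The hepatocyte marker sum ran from 111687 to 205759 CPM at the high dose, below the 223434 to 267864 CPM of controls. The lowest sum was that of the kidney-marked high dose replicate 1, and the high dose median was 172476 CPM. The markers did not all go the same way. ALB, the most abundant of them, was lower in all high dose libraries than in all controls. APOA1 ran from 9730.5 to 15536 CPM at the high dose against 7853 to 10387 CPM in controls, and HNF4A from 32.1 to 75.7 CPM against 23.6 to 44.8 CPM. Without high dose replicate 1 the high dose ranges were 11519 to 15536 CPM for APOA1 and 32.1 to 73.9 CPM for HNF4A. For ALB the range was then 98071 to 129801 CPM, against 136389 to 182436 CPM in controls. In whole liver, fewer cells of a type and less RNA per cell cannot be told apart. The bile duct list (7 markers) summed to 142 to 234 CPM in controls and 129 to 185 CPM at the medium dose. At the high dose it summed to 210 to 344 CPM. EPCAM led the sum in every library but high dose replicate 1, where the secreted protein SPP1 led. In controls KRT19 (20.2 to 31.0 CPM) exceeded SPP1 (10.7 to 14.5 CPM). KRT7 was at 0 in 10 libraries. The highest sum was that of high dose replicate 1. SPP1 was at 186 CPM there, against 26.5 to 62.1 CPM in the other high dose libraries. High dose replicate 5, highest in all 3 genes, had a middle hepatocyte sum of 172476 CPM and the lowest bile duct sum of its group. The part of these cell types in the rise was not tested.

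In the tubulin and microtubule lists no gene passed the test at the high dose against control in JQ, where 3.56% of all names were called. Lists this short would hold few calls at that share, and nothing is read from their counts. Of 39 tested tubulins and TPPP relatives 0 were called by edgeR (0 at an unadjusted p under 0.05, 0 by DESeq2 and 0 by limma voom). The list's median log2 fold change was 0.10. The smallest p belonged to the name tubulin_alpha_chain, with 1.67 ± 0.253 CPM in controls and 1.29 ± 0.135 CPM at the high dose (SD, n = 5, log2 fold change -0.37, edgeR adjusted p = 0.323). The relative TPPP3 held at most 16 reads, in medium dose replicate 1.

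Of 23 tested microtubule binding and tubulin acetylation genes 0 were called (0 at an unadjusted p under 0.05, 0 by DESeq2 and 0 by limma voom), with a median log2 fold change of 0.06. The share called over all names was 3.56% there. STMN1, which destabilises microtubules, had 227 ± 14.1 CPM in controls and 195 ± 42.5 CPM at the high dose (SD, n = 5, log2 fold change -0.21, edgeR adjusted p = 0.383). Against the medium dose, where 1.89% of all names were called, 1 of the 23 fell by edgeR and 0 by limma voom, the actin and microtubule kinase LIMK1, from 14.2 ± 3.85 to 8.73 ± 1.04 CPM (SD, n = 5, log2 fold change -0.70, edgeR adjusted p = 0.0477). Without the 3 libraries carrying other tissues' markers its adjusted p was 0.137. Markers of oligodendrocytes apart from the widely expressed CNP were at 1.53 CPM or less in all JQ libraries, MOG at 0 in 13 of 15.

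Of 15 tested bicarbonate carriers and band 3 partners 0 were called in JQ at the high dose (4 at an unadjusted p under 0.05, 0 by DESeq2 and 0 by limma voom), with a median log2 fold change of -0.16. Over all names 3.56% were called, and nothing is read from a count in so short a list. SLC4A7, a sodium bicarbonate carrier, had 5.36 ± 1.17 CPM in controls and 8.22 ± 2.77 CPM at the high dose (SD, n = 5, log2 fold change 0.62, edgeR adjusted p = 0.124). The erythroid marker sum was 651 to 1385 CPM in controls, 516 to 1503 CPM at the medium dose and 558 to 757 CPM at the high dose.

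Of 147 other numbered transmembrane proteins 2 rose and 3 fell in JQ at the high dose, a share close to the 3.56% of all names. The median log2 fold change of the list was 0.00. TMEM72 rose from 2.54 ± 0.735 to 12.2 ± 4.62 CPM (log2 fold change 2.28, edgeR adjusted p = 0.0182) and TMEM120A from 23.7 ± 3.15 to 37.5 ± 5.55 CPM (SD, n = 5, log2 fold change 0.66, edgeR adjusted p = 0.0109). TMEM35B fell from 25.2 ± 7.07 to 10.005 ± 1.85 CPM (log2 fold change -1.33, edgeR adjusted p = 0.00137) and TMEM181 from 56.5 ± 14.5 to 23.6 ± 7.59 CPM (SD, n = 5, log2 fold change -1.26, edgeR adjusted p = 0.00771). TMEM184A fell too (log2 fold change -0.51, edgeR adjusted p = 0.0454). Without the 3 libraries carrying other tissues' markers, the adjusted p of TMEM72 was 0.0816 and that of TMEM184A 0.0542. Against the medium dose TMEM130 rose (log2 fold change 1.64, edgeR adjusted p = 0.0439) and TMEM35B fell (log2 fold change -1.01, edgeR adjusted p = 0.0139), and without those libraries the adjusted p was 0.214 and 0.0842.

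At the JQ medium dose against control edgeR called 0 members of these lists (10 at an unadjusted p under 0.05, 0 by DESeq2 and 0 by limma voom), and 0% of all names. In DCCO it called 0 in each comparison, with 17 at an unadjusted p under 0.05 at the high dose, 12 at the medium dose against control and 14 between the doses. The shares called over all names were 0.0343%, 0.048% and 0% in these comparisons. DESeq2 called 1 at the DCCO medium dose against control and 0 in the other 2 comparisons, and limma voom called 0 in all 3.

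The nearest named protein-coding genes beside TMEM139 and TPPP on the quail chromosomes were looked up in the RefSeq annotation of Coturnix japonica 2.1. It was used for gene order only and chosen after the values of the members were seen. Genes whose symbol starts with LOC were skipped, so unnamed genes may lie closer. CASP2 and GSTK1, the nearest named genes on the 2 sides of TMEM139, did not pass the test at the high dose. CASP2, a caspase, had 10.4 CPM in controls and 13.1 CPM at the high dose (log2 fold change 0.33, SE 0.18, edgeR adjusted p = 0.383). GSTK1, a glutathione transferase, had 297 and 294 CPM (log2 fold change -0.01, SE 0.12, edgeR adjusted p = 0.976). In that annotation 1 other protein-coding gene overlaps TMEM139, and which gene that is was not recorded. Beside TPPP, SLC9A3 was too low to be tested, at 0.0651 CPM in controls and 0.306 CPM at the high dose, and BRD9, a bromodomain protein, had 15.1 and 16.3 CPM (log2 fold change 0.11, SE 0.07, edgeR adjusted p = 0.497). No gene with the symbol GAST was listed there, and the neighbours of the peptide's gene were not analysed here.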

How the data were processed

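RNA was measured by sequencing of single livers (29 libraries, reads of 101 bp). Per the labels' protocols and table headers, the authors deposited raw counts per protein name, 1 table a species. edgeR is named in the submitters' processing notes, without its role. The deposited counts carry the labels all birds and Seq2Fun, and no genome build is named in the sources used here. All 29 columns were used. H and M in column names were read as high and medium dose, and S as control.

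Here the counts were tested with edgeR 4.0.16 in R 4.3.3 (filterByExpr with a minimum count of 10 and a total of 15, TMM factors, robust quasi-likelihood fit over the 3 groups of a species, Benjamini-Hochberg threshold 0.05). CPM uses TMM library sizes, and log2 CPM a prior count of 2. DESeq2 1.42.0 and limma voom (limma 3.58.1), no filter, 2-group fits, a replicate block and left-out libraries were alternatives. The functions were checked on simulated data. The species tables were fitted separately.

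The 3 genes and all lists were chosen with earlier results of these data known. Named from each list were up to 4 called members, or up to 3 with the smallest p, and the 5 names most like each gene, skipping some that are not reported here. Libraries were not treated as pairs, since the labels tie no numbers together and not every same-numbered pair had a correlation of deviations over 0.1 (-0.12 to 0.15, median 0.00, over 15 JQ pairs, and -0.12 to 0.39, median 0.16, over 11 DCCO pairs, against a median of -0.02 for other DCCO pairs).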

Additional observations from a re-analysis of the deposited data

Results flagged for a closer look

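Of 18 sets of a gene in a group, 2 held a library far from the rest by Dixon's criterion. Chance alone meets it in about 1 of 20 such sets if values are normally distributed. That rate was not checked for CPM values resting on few reads. The gastrin/CCK-like peptide was at 9.19 CPM in JQ medium dose replicate 1, against a group median of 0.582 CPM, and the gap to the next library was 0.881 of the group's range. TPPP was at 0 CPM in DCCO high dose replicate 1, against a group median of 1.24 CPM, with a gap of 0.755 of the range.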

How the results depend on the processing

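The JQ log2 fold changes of the 3 genes kept their direction under all alternatives, from 7.31 to 9.01, 5.26 to 6.38 and 5.44 to 6.09 at the high dose against control. None of the alternatives brought a gene past the threshold in a tested comparison. The DCCO values of TMEM139 and TPPP changed sign. At the high dose TMEM139 gave 0.0255 with limma voom and 0.42 without control 2 and medium dose 5, which carry other tissues' markers, and -0.54 to 0.41 when each library was left out. TPPP gave -0.53 to 0.0906, turning positive without control 3 (0.0793) and without high dose 1, and -0.96 with limma voom, which also gave -1.46 high against medium dose. At the medium dose TMEM139 gave 0.41 without the marked libraries and -0.77 to 0.18 by leaving out each library, and high against medium dose -0.11 to 0.46. The cause was not tested.

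The counts of names called moved more. DESeq2 called 974, 6 and 614 names in JQ (high against control, medium against control, high against medium dose) and 62, 54 and 4 in DCCO. Without the 3 JQ libraries carrying other tissues' markers 297 names were called at the high dose against control and 160 against the medium dose. Fitting only the groups compared gave 128 for JQ high against medium dose and 2 for DCCO high dose against control, where no filter gave 3 and leaving out the libraries with 6 in the column name gave 16. Leaving out each library in turn gave 303 to 659 and 166 to 391 calls in JQ at the high dose against control and medium dose, and 2 to 14, 6 to 16 and 0 to 1 in DCCO. Leaving out libraries by markers or with 6 in the column name was chosen after seeing the data. A replicate block, which the labels do not call for although DCCO libraries of the same number leaned together (median correlation 0.16), gave 187 calls for JQ high against medium dose, 2 for DCCO high dose against control and 1 for high against medium dose, and a TMEM139 value of 0.00 at the DCCO high dose (0.000694 unrounded). Depth limits the DCCO and JQ control values, which rest on few reads.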
